A study of Mus musculus with 9 samples.

Results

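Semaphorins, plexins and neuropilins form 1 ligand and receptor system, and their transcripts were measured here by RNA-seq in 3 kinds of keratinocyte sorted from mouse back skin. The members were all protein-coding genes whose symbol begins with Sema and a digit or with Plxn, together with Nrp1 and Nrp2. This gave 31 of the 55357 rows of the deposited table: 20 semaphorins, 9 plexins and 2 neuropilins. Of these, 23 were detected, meaning a mean of at least 1 TPM, the authors' measure of transcripts scaled to transcript length and to the library total, in at least 1 group. The detected members were 15 semaphorins, 6 plexins and both neuropilins.

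The study compared touch dome keratinocytes, the epidermal cells that overlie and surround the touch-sensing Merkel cells, with keratinocytes of the hair follicle (HF) and of the remaining interfollicular epidermis (IFE). All 9 libraries, 3 in each group, came from C57BL/6 mice of genotype TNC-CREER; tdTomato at postnatal day 60, given tamoxifen at 100 µg per g body weight on days 51 and 52. The Cre recombinase in these mice carries the name of Tnc, the gene of tenascin C, and is active only after tamoxifen, so the red tdTomato reporter marks cells by that driver. The sort kept cells with EPCAM and integrin α6 at the surface in all 3 groups. Those of the Touchdome gate were also SCA1-positive and reporter-positive, HF cells were SCA1-negative and reporter-negative, and IFE cells were SCA1-positive and reporter-negative. The labels number the libraries 1 to 3 in each group and do not state if each was drawn from its own mice, and the p-values reflect no more than the scatter among these 9 libraries.

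Semaphorins are proteins that share a Sema domain and were first known for steering growing axons. Class 3 members are secreted, classes 4, 5 and 6 span the membrane, and class 7 is held by a lipid anchor. Plexins are their main receptors and act inside the cell through a domain that switches off Ras-like GTPases. Neuropilins are co-receptors with a short cytoplasmic tail that most class 3 semaphorins need in order to reach plexin A receptors, and they also bind vascular endothelial growth factors. In skin the family is known for guiding sensory axons and blood vessels and for acting between keratinocytes.

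Total expected counts per library were between 9295059 and 28249763, and 3 counts corresponded to between 0.114 and 0.316 CPM, the count scaled to the library total. CPM values are scaled here by edgeR's trimmed mean of M values and were used to compare groups gene by gene, while TPM was used to compare genes. Of the sort genes, Tnc was highest in Touchdome, with an average of 257 CPM there, 50.5 CPM in HF and 4.79 CPM in IFE. It was called higher in HF than in IFE (edgeR adjusted p = 0.00137), although both gates were reporter-negative. Ly6a, which encodes SCA1, followed the gates and averaged 125, 1.08 and 153 CPM in the same order of groups. Itga6 averaged 886, 422 and 1134 CPM and Epcam 150, 228 and 122 CPM in that order. Markers of basal keratinocytes, 5 in all with Krt5 and Krt14 among them, summed to at least 22952 CPM in every library, and 4 touch dome markers, Tnc included, to 1795 to 2283 CPM in Touchdome, 1771 to 2019.7 CPM in HF and 271 to 329 CPM in IFE. Most of the touch dome sum was Krt17, which averaged 1693 CPM in Touchdome, 1584 CPM in HF and 278 CPM in IFE. Between Touchdome and HF the 4 disagreed. By edgeR, Tnc was called higher in Touchdome, Krt17 was not called, and Cd200 (24.6 against 127 CPM) and Gli1 (74.4 against 147 CPM) were called lower. The summed level of 6 hair follicle markers was 254 to 680 CPM in Touchdome, 3016 to 3072 CPM in HF and 176 to 184 CPM in IFE. The highest Touchdome value, 679.7 CPM, was that of replicate 3, against 267 and 254 CPM in Touchdome replicates 1 and 2. IFE replicate 2 stood apart by transcript length: for 1471 genes with a longest transcript of 6000 nt or more, its median log2(TPM + 1) was -0.51 relative to the mean of the other 2 IFE libraries, and for 2115 genes under 2000 nt it was 0.17. All 9 plexins, 5 of the 20 semaphorins and 1 of the 2 neuropilins have a transcript of that length. Several results are also given without Touchdome replicate 3 or IFE replicate 2.

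**Figure D1:**
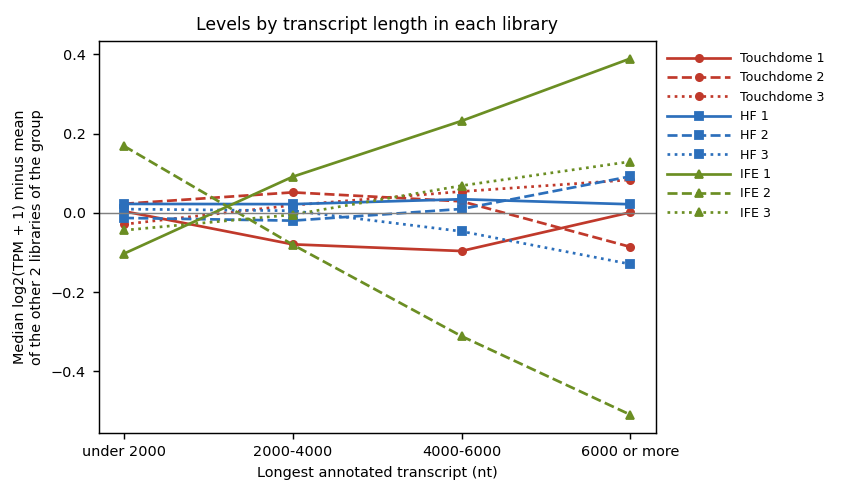
Median difference of log2(TPM + 1) between each library and the mean of the other 2 libraries of its group (vertical axis), for genes in 4 bins of longest annotated transcript in nt (horizontal axis), with 1 line per library. IFE replicate 2 runs from 0.17 in the shortest bin to -0.51 in the longest, IFE replicate 1 from -0.10 to 0.39, and the other 7 libraries stay between -0.13 and 0.13.

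Levels differed widely between members. In Touchdome the highest was Sema3f, a secreted ligand that acts through neuropilin 2, with 247 ± 33.4 TPM (SD, n = 3), followed by Plxnb2 (159 ± 5.35), Plxnb1 (124 ± 9.47), Sema3c (93.4 ± 5.83) and Plxna1 (61.7 ± 5.01). The level of Sema4b was 60.9 ± 3.44 TPM and that of Sema3d 57.3 ± 2.49 TPM in Touchdome, so these neighbours in the order did not differ from Plxna1 beyond their spread. In HF the order was headed by receptors: Plxnb2 had 136 ± 15.2 TPM and Plxnb1 131 ± 7.14 TPM. The next 5 in HF lay within each other's spread in turn, from Sema4a at 78.1 ± 17.7 TPM through Plxna2 (76.8 ± 10.1), Sema3e (76.0 ± 10.6) and Plxna1 (69.3 ± 13.4) to Sema3c (62.9 ± 3.56). In IFE the order was Sema3f (262 ± 33.5 TPM), Plxnb2 (159 ± 8.99), Sema3c (129 ± 19.7), Plxnb1 (115 ± 48.9) and Sema3d (65.3 ± 23.9).

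**Figure D2:**
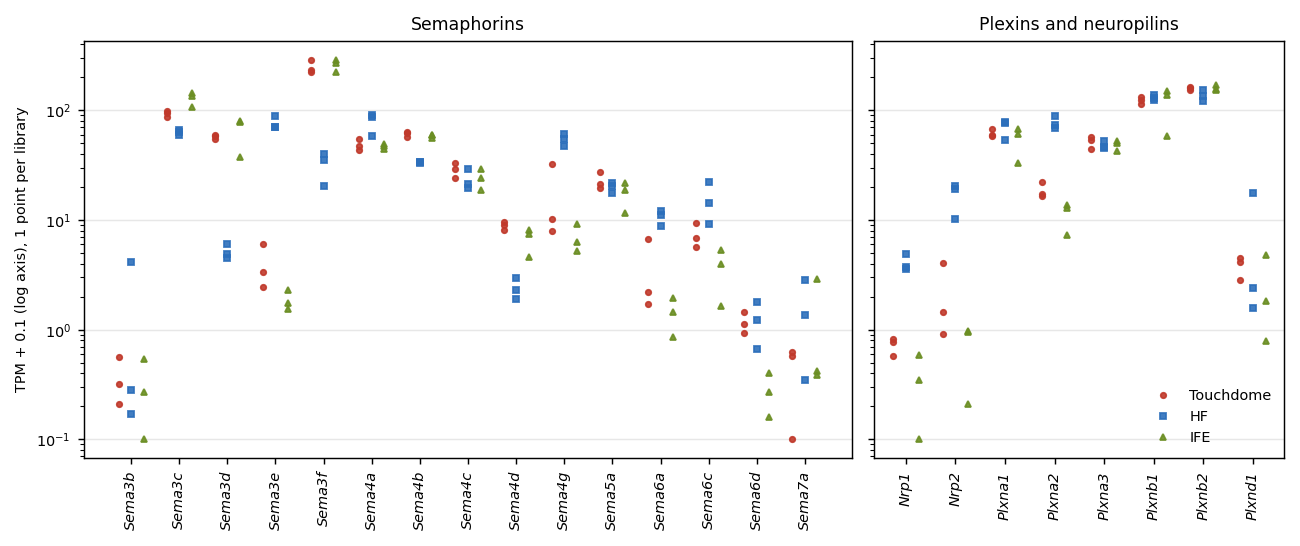
Level of the 23 detected members in each library, as TPM + 0.1 on a log axis, with 1 point per library and the groups Touchdome, HF and IFE side by side for each gene. Sema3f stands highest in Touchdome and IFE at 247 and 262 TPM on average, and at 31.8 TPM in HF, while Sema3e averages 3.87 TPM in Touchdome, 76.0 TPM in HF and 1.76 TPM in IFE.

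The summed level of the class 3 semaphorins was 402 ± 38.4 TPM in Touchdome, 177 ± 20.4 TPM in HF and 458 ± 76.0 TPM in IFE. Class 4 sums lay closer together, at 164 ± 15.4 TPM in Touchdome, 191 ± 16.6 TPM in HF and 142 ± 8.45 TPM in IFE. Class 6 sums were 11.9 ± 4.55 TPM in Touchdome, 26.7 ± 6.85 TPM in HF and 5.09 ± 1.63 TPM in IFE. Summed over all 9 plexins the level was 419 ± 17.2 TPM in Touchdome, 469 ± 43.0 TPM in HF and 389 ± 68.4 TPM in IFE, ranges that overlap. The neuropilins together had 2.66 ± 1.54 TPM in Touchdome, 20.6 ± 5.98 TPM in HF and 0.860 ± 0.660 TPM in IFE.

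Which members differed between the groups was asked with edgeR's quasi-likelihood test, fitted on all 9 libraries and 15046 genes, with a Benjamini-Hochberg adjusted p under 0.05 as the threshold. Of the 31 members, 25 passed the filter on low counts and could be tested. Between Touchdome and HF, 6 members were higher and 8 lower in Touchdome, 56.0% of those tested, where 11.8% of all tested genes were higher, 12.8% lower and 24.6% either. Between HF and IFE, 10 were higher and 5 lower in HF, 60.0% of those tested, where 17.1% of all tested genes were higher, 16.0% lower and 33.0% either. Between Touchdome and IFE, 1 member was lower in Touchdome, 1 of the 25 tested, where 1.22% of all tested genes were higher, 0.0798% lower and 1.30% either. The median log2 fold change of the tested members was -0.21 for Touchdome against HF, 0.42 for HF against IFE and 0.15 for Touchdome against IFE, beside 0.00 in all 3 comparisons over all tested genes. The comparisons share libraries and are therefore not independent of each other. In such bulk samples fewer cells of a type and less RNA per cell cannot be told apart.

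**Figure D3:**
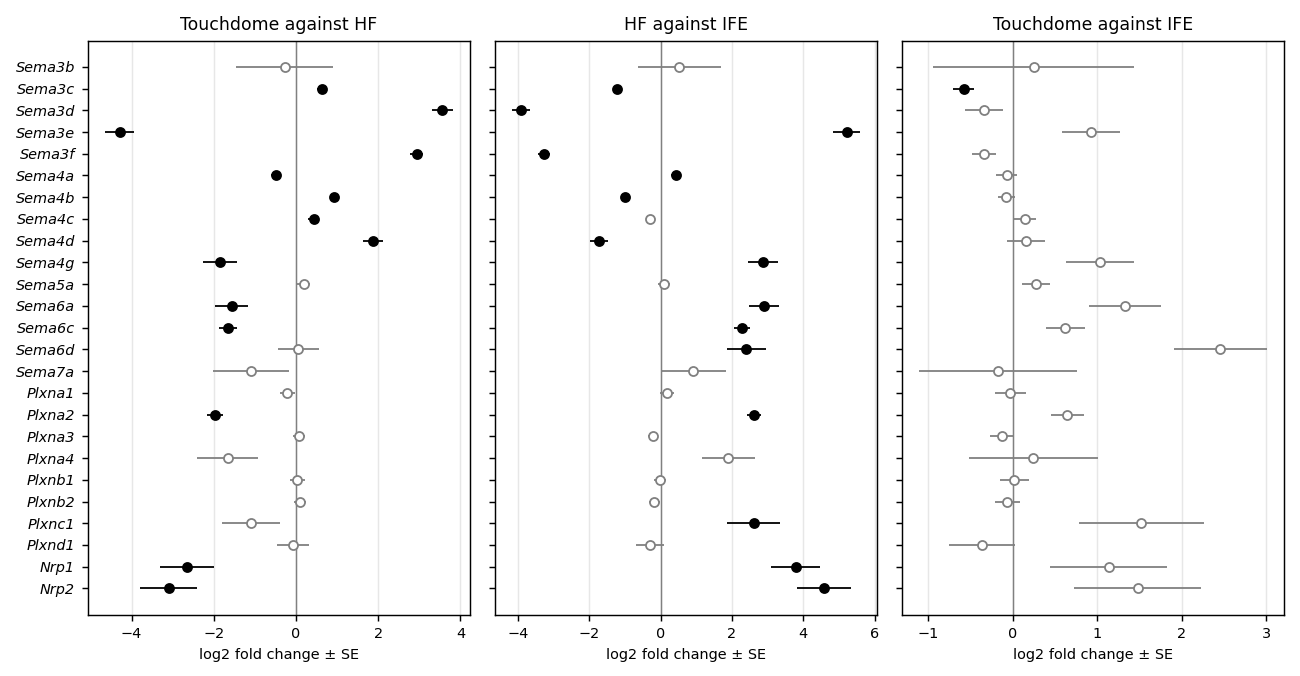
Log2 fold change with its SE (horizontal axis) of the 25 tested members, by edgeR, in 3 panels: Touchdome against HF, HF against IFE, and Touchdome against IFE. Filled black points passed an adjusted p of 0.05 and open grey points did not; the third panel has 1 filled point, Sema3c, and its axis is narrower than the others.

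The class 3 ligands Sema3d, Sema3f and Sema3e each differed between HF and both other groups. Sema3d, a secreted ligand known from axon guidance and vessel patterning, had 223, 208 and 182 CPM in Touchdome, against 20.8, 15.4 and 15.5 CPM in HF and 297, 162 and 318 CPM in IFE. All HF libraries lay far below the others, whereas the Touchdome values fell inside the IFE range. Sema3d was higher in Touchdome than in HF by 3.56 ± 0.25 on the log2 scale (edgeR, SE, adjusted p = 3.97e-06) and lower in HF than in IFE, with a log2 fold change of -3.90 ± 0.26 (edgeR adjusted p = 1.46e-06). Sema3f had 268, 311 and 221 CPM in Touchdome, against 41.8, 31.2 and 31.5 CPM in HF and 337, 344 and 329.7 CPM in IFE. No library of HF came near the other groups, and in CPM every Touchdome library lay below every IFE library. In TPM the Touchdome and IFE ranges overlapped, at 223 to 285 and 225 to 289 TPM. Between Touchdome and IFE, Sema3f was not called, with a log2 fold change of -0.34 ± 0.15 (edgeR adjusted p = 0.423). The log2 fold change of Sema3f was 2.93 ± 0.16 for Touchdome against HF (edgeR adjusted p = 1.32e-07) and -3.27 ± 0.16 for HF against IFE (edgeR adjusted p = 3.15e-08).

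Sema3e ran the other way. This ligand is unusual in its class because it binds plexin D1 directly, without a neuropilin. Its level was 8.44, 12.6 and 22.7 CPM in Touchdome, against 262, 257 and 329.8 CPM in HF and 6.10, 6.68 and 9.88 CPM in IFE. The HF libraries stood above all others, and the Touchdome and IFE ranges overlapped. Sema3e was 19.5-fold lower in Touchdome than in HF, a log2 fold change of -4.29 ± 0.36 (edgeR adjusted p = 4.03e-05), and 37.1-fold higher in HF than in IFE, a log2 fold change of 5.21 ± 0.37 (edgeR adjusted p = 1.02e-05). Plxnd1, which encodes that receptor, had 4.54, 6.17 and 5.06 CPM in Touchdome, against 4.66, 8.11 and 3.87 CPM in HF and 8.94, 3.38 and 7.84 CPM in IFE, and passed the test in no comparison.

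Sema3c, a ligand that can use either neuropilin and also plexin D1, was present at high levels in all 3 groups and ordered them without overlap. It had 309.6, 315 and 277 CPM in Touchdome, against 181, 194 and 206 CPM in HF and 480.3, 387 and 483 CPM in IFE. The log2 fold change of Sema3c was 0.63 ± 0.12 for Touchdome against HF (edgeR adjusted p = 0.00192) and -1.22 ± 0.12 for HF against IFE (edgeR adjusted p = 9.52e-06). The remaining class 3 members were near the limit of measurement. Sema3b had 17, 25 and 20 counts summed over the 3 libraries of Touchdome, HF and IFE in that order, and passed no test. Sema3a, which encodes the first semaphorin known to collapse growth cones, had 9, 14 and 3 counts in Touchdome, 3, 2 and 4 in HF and 1, 2 and 1 in IFE. Sema3g had 7 counts in 1 Touchdome library, 22 in 1 HF library and none elsewhere. Sema3a and Sema3g were not tested.

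**Figure D4:**
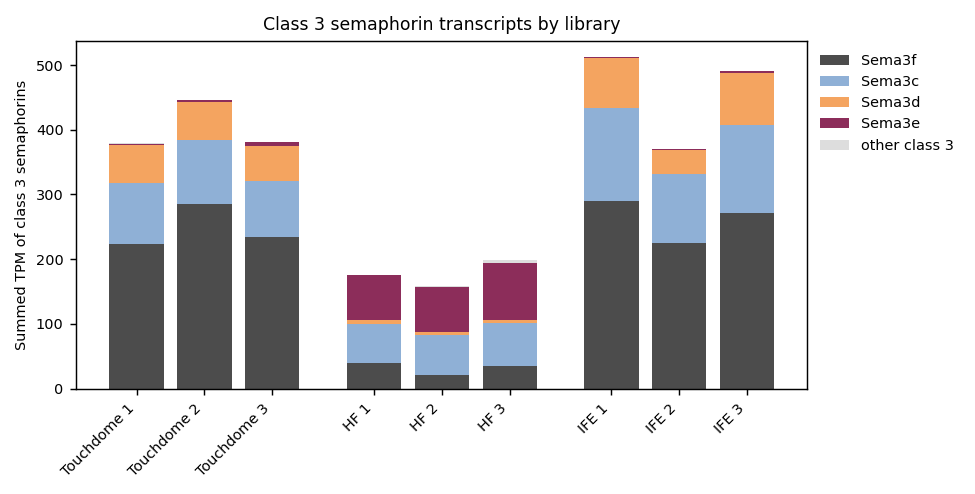
Summed TPM of the 7 class 3 semaphorins in each of the 9 libraries (bars from 0), split by gene. The group means of the sum are 402 TPM in Touchdome, 177 TPM in HF and 458 TPM in IFE, and the Sema3e segment is broad only in the 3 HF bars.

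The make-up of the class 3 pool differed accordingly. Sema3f made up 61.3 ± 2.51% of class 3 TPM in Touchdome, 17.8 ± 5.01% in HF and 57.5 ± 2.70% in IFE (SD, n = 3). The share of Sema3e was 0.974 ± 0.518% in Touchdome, 42.8 ± 2.65% in HF and 0.391 ± 0.096% in IFE. For Sema3d it was 14.3 ± 1.07% in Touchdome, 2.87 ± 0.499% in HF and 13.9 ± 3.28% in IFE, and for Sema3c 23.3 ± 1.56%, 35.7 ± 3.79% and 28.2 ± 0.499% in the same order of groups.

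Sema3c, Sema3d and Sema3e lie on mouse chromosome 5, where the order in RefSeq is Sema3d, Sema3a, Sema3e and Sema3c. No other protein-coding gene lies between Sema3d and Sema3a, 3 lie between Sema3a and Sema3e, and 15 between Sema3e and Sema3c. Sema3d and Sema3c were lower and Sema3e higher in HF than in IFE, and other genes lie between them. Their promoters are shown because these genes of 1 chromosome differed in opposite directions. Each runs from 250 bases before to 50 after the start in RefSeq (build GRCm38.p6, plus strand), and capitals mark matches to the GC box, GGGCGG on either strand.
Sema3d, chr5:12382916-12383215: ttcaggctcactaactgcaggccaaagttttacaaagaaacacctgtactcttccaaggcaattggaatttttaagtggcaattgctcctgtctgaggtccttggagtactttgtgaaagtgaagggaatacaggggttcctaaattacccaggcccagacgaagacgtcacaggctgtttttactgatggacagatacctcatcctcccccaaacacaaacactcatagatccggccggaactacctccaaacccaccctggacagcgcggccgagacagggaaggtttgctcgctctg
Sema3e, chr5:14025026-14025325: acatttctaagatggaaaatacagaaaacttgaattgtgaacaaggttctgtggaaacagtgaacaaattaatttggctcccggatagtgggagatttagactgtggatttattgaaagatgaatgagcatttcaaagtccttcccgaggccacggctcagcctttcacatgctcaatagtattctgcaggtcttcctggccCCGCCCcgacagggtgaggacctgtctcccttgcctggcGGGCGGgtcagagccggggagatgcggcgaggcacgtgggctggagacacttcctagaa
Sema3c, chr5:17574566-17574865: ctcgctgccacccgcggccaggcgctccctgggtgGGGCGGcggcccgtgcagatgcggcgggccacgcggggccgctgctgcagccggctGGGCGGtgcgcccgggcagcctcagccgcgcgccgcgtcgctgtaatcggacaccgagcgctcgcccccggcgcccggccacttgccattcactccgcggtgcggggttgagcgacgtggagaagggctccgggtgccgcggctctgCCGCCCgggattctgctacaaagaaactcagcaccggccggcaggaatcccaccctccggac

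The window of Sema3d holds no GC box, 8 CpG pairs and 49.7% G and C, that of Sema3e holds 2 GC boxes, 11 CpG pairs and 50.7% G and C, and that of Sema3c holds 3 GC boxes, 42 CpG pairs and 75.7% G and C. The median G and C content of all 32851 RefSeq promoters was 52.7%. RefSeq promoters were found for 26 of the 31 members, 37 windows in all. On either strand, GGGCGG was present in 27 of these 37 windows and in 35.7% of all promoters. The TATA box TATAAA was in 0 of the 37 and in 13.6% of all, the AP-1 motif TGANTCA in 3 and in 7.81% of all, the GLI motif GACCACCCA in 0 and in 0.253% of all, and the TCF/LEF motif CTTTGAT in 1 and in 3.73% of all. These matches describe letters in the windows and were not tested for use by any factor.

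Among the transmembrane class 4 semaphorins, Sema4b and Sema4d were lower in HF and Sema4g was higher. Sema4b, of which less is known than of its relatives, had 137, 135 and 123 CPM in Touchdome, against 68.2, 68.8 and 70.7 CPM in HF and 129, 143 and 144 CPM in IFE. The HF libraries were tightly grouped below both other groups, which overlapped. Its log2 fold change was 0.93 ± 0.10 for Touchdome against HF (edgeR adjusted p = 2.96e-05) and it was 2.01-fold lower in HF than in IFE (edgeR adjusted p = 9.58e-06). Sema4d, the ligand of plexin B1, had 23.5, 20.8 and 18.8 CPM in Touchdome, against 5.44, 4.22 and 7.34 CPM in HF and 19.8, 13.6 and 23.2 CPM in IFE. Again only the HF libraries stood apart. Sema4d was 3.68-fold higher in Touchdome than in HF, with a log2 fold change of 1.88 ± 0.24 (edgeR adjusted p = 0.000113), and 3.31-fold lower in HF than in IFE, with a log2 fold change of -1.73 ± 0.24 (edgeR adjusted p = 0.000128).

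Sema4g had 19.0, 23.0 and 58.7 CPM in Touchdome, against 125, 126 and 111 CPM in HF and 12.9, 15.4 and 20.6 CPM in IFE. Touchdome replicate 3 lay between the groups, while replicates 1 and 2 were close to IFE. Sema4g had a log2 fold change of -1.85 ± 0.41 for Touchdome against HF (edgeR adjusted p = 0.0116) and 2.88 ± 0.42 for HF against IFE (edgeR adjusted p = 0.00102). Without Touchdome replicate 3 the value for Touchdome against HF was -2.52 (edgeR adjusted p = 2.1e-06). Sema4a, which binds plexins of classes B and D, had 60.9, 73.7 and 64.6 CPM in Touchdome, against 95.9, 81.0 and 103 CPM in HF and 65.4, 71.5 and 72.5 CPM in IFE. Its differences were small, -0.49 ± 0.12 for Touchdome against HF (edgeR adjusted p = 0.0103) and 0.42 ± 0.12 for HF against IFE (edgeR adjusted p = 0.0181). The first was not called without Touchdome replicate 1 (adjusted p = 0.065) or HF replicate 3 (0.0543), and the second not without IFE replicate 1 (0.0628), HF replicate 1 (0.063) or HF replicate 3 (0.0862).

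Sema4c, a ligand of plexin B2, had 45.5, 51.5 and 60.9 CPM in Touchdome, against 40.3, 38.1 and 38.3 CPM in HF and 48.7, 43.4 and 50.3 CPM in IFE. It was higher in Touchdome than in HF by 0.43 ± 0.13 on the log2 scale (edgeR adjusted p = 0.0277), a call lost in 8 of 18 alternatives, among them without Touchdome replicate 2 (0.45, adjusted p = 0.0581), Touchdome replicate 3 (0.32, 0.121), HF replicate 1 (0.46, 0.0612), HF replicate 2 (0.42, 0.0792) or HF replicate 3 (0.42, 0.0822). Part of the reads of Sema4c were divided between genes, since 8 of its 9 expected counts were not whole, and D430040D24Rik overlaps it on the other strand at up to 4.79 TPM. Sema4f had 13, 6 and 2 counts in all in Touchdome, HF and IFE in that order and was not tested.

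Class 6 semaphorins signal through class A plexins. All 3 that could be tested were higher in HF than in IFE. Sema6a, a ligand of plexins A2 and A4, had 4.92, 5.90 and 16.0 CPM in Touchdome, against 28.0, 29.5 and 21.7 CPM in HF and 2.68, 3.02 and 4.77 CPM in IFE. In CPM the 3 groups did not overlap, and Touchdome replicate 3 was the highest of its group. In TPM Touchdome (1.60 to 6.55) and IFE (0.75 to 1.85) overlapped. Sema6a had a log2 fold change of -1.57 ± 0.41 for Touchdome against HF (edgeR adjusted p = 0.0174) and 2.90 ± 0.43 for HF against IFE (edgeR adjusted p = 0.000449). The first was -2.29 without Touchdome replicate 3 (adjusted p = 9.38e-05) and was not called without Touchdome replicate 2 (0.061) or HF replicate 2 (0.0515).

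Sema6c had 5.43, 6.44 and 5.81 CPM in Touchdome, against 15.6, 18.2 and 21.6 CPM in HF and 3.52, 4.50 and 3.48 CPM in IFE. In CPM the groups did not overlap, whereas in TPM HF replicate 1 (9.19) lay just below Touchdome replicate 3 (9.21). Its log2 fold change was -1.65 ± 0.22 for Touchdome against HF (edgeR adjusted p = 0.00015) and 2.27 ± 0.23 for HF against IFE (edgeR adjusted p = 8.34e-06). The first was lost in 3 of 18 alternatives, the limma fits on TPM. On the log2(TPM + 1) scale it was -0.91 (limma adjusted p = 0.117), and the highest limma adjusted p of these fits was 0.207. Sema6d, a ligand of plexin A1, had 3.90, 2.41 and 4.98 CPM in Touchdome, against 3.61, 2.00 and 5.18 CPM in HF and 0.631, 0.281 and 1.06 CPM in IFE. Touchdome and HF overlapped fully and both lay above IFE. Sema6d was higher in HF than in IFE by 2.40 ± 0.55 on the log2 scale (edgeR adjusted p = 0.0045), and the difference between Touchdome and HF was 0.06 ± 0.51 (edgeR adjusted p = 0.955). Sema6b had 11 counts in Touchdome, 0 in HF and 5 in IFE and was not tested.

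Of class 5, Sema5a, a transmembrane semaphorin with thrombospondin repeats, was abundant and passed no test. Its level was 104 to 137 CPM in Touchdome, 101 to 126 CPM in HF and 77.0 to 119 CPM in IFE. Sema5b had no count in any of the 9 libraries. Sema7a, the lipid-anchored member, which binds plexin C1 and integrin β1, had 0 to 1.02 CPM in Touchdome, 0.459 to 2.29 CPM in HF and 0.579 to 0.985 CPM in IFE and passed no test.

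**Figure D5:**
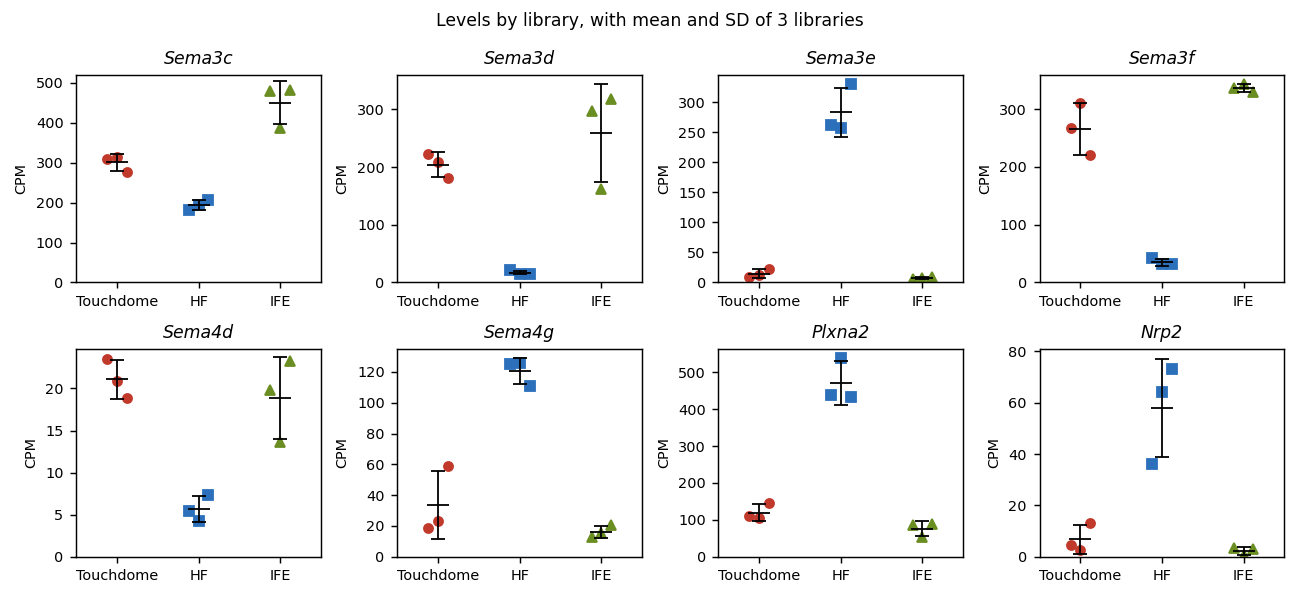
CPM of 8 members in each library (points, linear axes from 0), with the mean and SD of the 3 libraries of Touchdome, HF and IFE. For Sema3d, Sema3f and Sema4d the HF libraries are the lowest, for Sema3e, Sema4g, Plxna2 and Nrp2 the highest, and for Sema3c the Touchdome libraries, at 277 to 315 CPM, lie between HF and IFE.

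Among the receptors, Plxna2 was the abundant plexin that passed the test. Plexin A2 is a receptor of class 6 semaphorins and, with a neuropilin, of class 3. Its transcript had 109, 104 and 145 CPM in Touchdome, against 439, 539 and 432 CPM in HF and 87.1, 54.0 and 88.1 CPM in IFE. The 3 groups did not overlap and HF stood well above both others. The log2 fold change of Plxna2 was -1.98 ± 0.20 for Touchdome against HF (edgeR adjusted p = 2.25e-05) and 2.62 ± 0.20 for HF against IFE (edgeR adjusted p = 2.01e-06), and 2.42 without IFE replicate 2 (edgeR adjusted p = 8.57e-07). Its share of the TPM of all plexins was 4.44 ± 0.690% in Touchdome, 16.3 ± 0.972% in HF and 2.82 ± 0.455% in IFE.

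The other abundant plexins passed no test in any comparison. Plxnb1, the receptor of Sema4d, had 473 to 506 CPM in Touchdome, 468 to 482 CPM in HF and 323 to 558 CPM in IFE. For Plxnb2, the receptor of Sema4c, the ranges were 399.8 to 419.9 CPM in Touchdome, 342 to 422 CPM in HF and 329 to 493 CPM in IFE. Plxna1 had 285 to 310.4 CPM in Touchdome, 283 to 394 CPM in HF and 208 to 359.6 CPM in IFE. In Plxna3 they were 98.6 to 109.6 CPM, 85.1 to 113 CPM and 91.7 to 125 CPM in the same order of groups. For each of these 4 genes the lowest IFE value in CPM was that of replicate 2, the library with low TPM for long transcripts. In TPM this held for Plxna1, Plxna3 and Plxnb1. Plxnb2 went the other way, with 169 TPM in IFE replicate 2 against 156 and 152 TPM in IFE replicates 1 and 3. Without IFE replicate 2, Plxnb2 was lower in HF than in IFE by a log2 fold change of -0.33 (edgeR adjusted p = 0.0353), against -0.17 ± 0.15 with that library (edgeR adjusted p = 0.411). Plxna1 and Plxnb1 also had fractional counts in 8 of 9 libraries and overlap the antisense genes Gm26811 and Gm7628, which reached 0.940 and 3.93 TPM.

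Plxnc1, the receptor of Sema7a, had 0.703, 1.34 and 1.33 CPM in Touchdome, against 1.92, 4.64 and 0.721 CPM in HF and 0.421, 0.352 and 0.379 CPM in IFE. HF was scattered, and its lowest library lay inside the Touchdome range. Plxnc1 was higher in HF than in IFE by 2.61 ± 0.74 on the log2 scale (edgeR adjusted p = 0.0159). This call was lost in 5 of 18 alternatives. Without HF replicate 2 the value was 1.77 (edgeR adjusted p = 0.113) and without IFE replicate 3 it was 2.59 (edgeR adjusted p = 0.0536). The others were the limma fits on TPM, among them log2(TPM + 1), with 0.73 (limma adjusted p = 0.152). Plxna4 had 1.26 to 2.88 CPM in HF and at most 1.25 CPM in Touchdome and 0.757 CPM in IFE, and passed no test. Plxnb3 had 1 count, in HF.

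Both neuropilins were higher in HF. Nrp1, the co-receptor of Sema3a, had 1.53, 1.16 and 0.996 CPM in Touchdome, against 7.04, 6.96 and 9.50 CPM in HF and 1.05, 0 and 0.568 CPM in IFE. Nrp2, the co-receptor of Sema3f, had 4.41, 2.59 and 13.3 CPM in Touchdome, against 36.3, 64.3 and 73.1 CPM in HF and 3.52, 0.492 and 2.92 CPM in IFE. No HF library overlapped another group for either gene, and IFE replicate 2 was the lowest of all 9 libraries for both. The log2 fold change of Nrp1 was -2.65 ± 0.65 for Touchdome against HF (edgeR adjusted p = 0.0101) and 3.79 ± 0.69 for HF against IFE (edgeR adjusted p = 0.000987). For Nrp2 it was -3.10 ± 0.70 for Touchdome against HF (edgeR adjusted p = 0.0151) and 4.58 ± 0.75 for HF against IFE (edgeR adjusted p = 0.00254). Without IFE replicate 2 the values for HF against IFE were 3.28 for Nrp1 (adjusted p = 0.000209) and 4.17 for Nrp2 (adjusted p = 0.00759). For Touchdome against HF, Nrp2 was -4.01 without Touchdome replicate 3 (adjusted p = 0.00296), and was not called without Touchdome replicate 1 (0.0599) or HF replicate 3 (0.0502).

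Neuropilins and several plexins are also expressed by other cells of skin, so the marker lists of those cells are given beside these results. The 7 melanocyte markers summed to 16.1 to 51.3 CPM in Touchdome, 99.0 to 129 CPM in HF and 9.92 to 14.3 CPM in IFE. Most of the HF sum was Mitf, which averaged 15.3 CPM in Touchdome, 98.9 CPM in HF and 9.91 CPM in IFE, whereas the pigment genes Dct (6.03, 8.22 and 0.885 CPM), Tyrp1 (2.92, 3.44 and 0.123 CPM) and Pmel (2.85, 3.41 and 1.73 CPM in the same order) were not called between Touchdome and HF. Touchdome replicate 3 had the highest follicle, melanocyte, fibroblast, Langerhans and Schwann cell sums of its group. Of the 8 members called lower in Touchdome than in HF, Sema3e, Sema4g, Sema6a, Plxna2 and Nrp2 were also highest in that library. Sema4a and Sema6c were highest in Touchdome replicate 2, and Nrp1 was lowest in replicate 3. Members not higher in HF, such as Sema4c and Sema5a, were highest in replicate 3 too. The 6 fibroblast markers summed to 45.3 to 90.3 CPM in Touchdome, 62.2 to 87.1 CPM in HF and 0.844 to 2.95 CPM in IFE. These sums held different genes: Col1a2 averaged 18.5 CPM in Touchdome, 65.2 CPM in HF and 0.297 CPM in IFE, and Dcn 21.8, 0.0218 and 0.118 CPM. The 7 endothelial markers summed to 3.22 to 3.96, 0.632 to 3.89 and 0.842 to 0.984 CPM in the same order. The 5 Schwann cell markers summed to 60.2 to 64.0 CPM in Touchdome, 25.5 to 33.3 CPM in HF and 60.6 to 72.3 CPM in IFE, and the 5 T cell markers to 119 to 148, 6.11 to 6.82 and 111 to 200.5 CPM. The 4 Langerhans cell markers spanned 104 to 235 CPM in Touchdome, 49.2 to 315 CPM in HF and 85.0 to 183 CPM in IFE. The 6 Merkel cell markers summed to 1.33 to 9.53 CPM in Touchdome, 1.90 to 2.82 CPM in HF and 0.114 to 0.316 CPM in IFE. Among them Krt8, at 7.16, 0.805 and 0.996 CPM in Touchdome, was called higher than in IFE (edgeR adjusted p = 0.0225). It was also called higher in HF than in IFE (edgeR adjusted p = 0.003). Atoh1 and Sox2 had no count in any library. The part of these cells in the results was not tested.

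Touchdome and IFE, whose gates differ in the reporter alone, had 1 called member in the fit that left out the replicate number. This was Sema3c, with a log2 fold change of -0.58 ± 0.12 (edgeR adjusted p = 0.0333) and every Touchdome library, at 277 to 315 CPM, below every IFE library, at 387 to 483 CPM. This call was lost in 12 of 18 alternatives, over which the adjusted p ran from 0.000313 to 0.414, and it was lost without any 1 of the 9 libraries except IFE replicate 2, without which it was -0.68 (adjusted p = 0.00826). No member was called higher in Touchdome by edgeR without the replicate number. There 6 members on the higher side and 2 on the lower had an unadjusted p under 0.05. Of all 15046 tested genes, 1605 had such a p, both sides together. DESeq2 called 5 members higher, beside 446 of all tested genes. With the replicate number as a block, edgeR called 2, beside 282 of all tested genes. The limma fit on log2(TPM + 1) called 0, beside 100. The 5 were Plxna2, Sema3e, Sema4g, Sema6a and Sema6d, and the 2 were Sema3e and Sema6d.

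Sema6d came nearest to the threshold, with a log2 fold change of 2.46 ± 0.55 for Touchdome against IFE (edgeR adjusted p = 0.0523). With the replicate block it was 2.58 (adjusted p = 0.01), and by DESeq2 2.47 (adjusted p = 0.000794). All 3 Touchdome libraries, from 2.41 to 4.98 CPM, lay above all 3 IFE libraries, from 0.281 to 1.06 CPM. Sema3e had a difference of 0.92 ± 0.34 (edgeR adjusted p = 0.367), which with the replicate block was 0.89 (adjusted p = 0.0313). For Sema4g it was 1.03 ± 0.41 (edgeR adjusted p = 0.412) and for Sema6a 1.33 ± 0.43 (edgeR adjusted p = 0.244). Without Touchdome replicate 3, the library with the highest follicle markers of its group, these log2 fold changes were 2.21 for Sema6d, 0.45 for Sema3e, 0.35 for Sema4g and 0.61 for Sema6a, none of them called. Without that library Plxna2 stood at 0.48, against 0.64 ± 0.19 with it (edgeR adjusted p = 0.184).

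Other genes of the pathway were taken from 3 lists. Of 12 co-receptors and other receptors that work with plexins or neuropilins, 9 were tested. Touchdome against HF gave 2 higher and 1 lower, beside 11.8% and 12.8% of all tested genes. HF against IFE gave 2 higher and 1 lower, beside 17.1% and 16.0%, and Touchdome against IFE 1 higher, beside 1.22%. At an unadjusted edgeR p under 0.05 in Touchdome against IFE, 2 were on the higher side and 1 on the lower. Of all 15046 tested genes, 1605 had such a p, both sides together. Chl1, a cell adhesion molecule that partners neuropilin 1, had 221, 195 and 172 CPM in Touchdome, against 68.1, 78.5 and 58.5 CPM in HF and 287, 210.2 and 272 CPM in IFE. It was lower in HF than in both: the log2 fold change was 1.52 ± 0.15 for Touchdome against HF (edgeR adjusted p = 1.71e-05) and -1.91 ± 0.16 for HF against IFE (edgeR adjusted p = 1.84e-06). Nrcam, an adhesion molecule that partners neuropilin 2, had 2.75, 2.77 and 13.0 CPM in Touchdome, against 45.8, 31.6 and 77.9 CPM in HF and 0, 0 and 0.265 CPM in IFE. It was lower in Touchdome than in HF by a log2 fold change of -3.09 ± 0.70 (edgeR adjusted p = 0.0148). Without HF replicate 3 it was -2.66 (adjusted p = 0.0514), and without Touchdome replicate 3, the highest library of its group, -4.23 (adjusted p = 0.000385). Nrcam was called higher in HF than in IFE (edgeR adjusted p = 0.000511). Between Touchdome and IFE, Nrcam was not called (edgeR adjusted p = 0.081). It was called in 4 of 18 alternatives, which were the replicate block (adjusted p = 0.000562), DESeq2 (6.31e-05), limma on log2(TPM + 0.1) (0.00803) and the fit without Touchdome replicate 3 (0.0403).

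Flt1, a receptor of vascular endothelial growth factor, had 3.26, 2.95 and 4.15 CPM in Touchdome, against 3.93, 0.843 and 1.05 CPM in HF and 0.421, 0.281 and 0.417 CPM in IFE. All Touchdome libraries were above all IFE libraries, and the HF values were scattered. Its log2 fold change was 3.17 ± 0.66 for Touchdome against IFE (edgeR adjusted p = 0.032), a call lost in 8 of 18 alternatives including the removal of any 1 IFE library or of Touchdome replicate 1 or 3. For HF against IFE it was 2.37 ± 0.65 (edgeR adjusted p = 0.0126), a call lost in 4 of 18; without HF replicate 1 it was 1.32 (adjusted p = 0.13). Erbb2, a receptor kinase that associates with plexin B1, had a log2 fold change of 0.36 ± 0.11 for Touchdome against HF (edgeR adjusted p = 0.0319), lost in 7 of 18 alternatives. Its mean was 203 ± 9.99 CPM in Touchdome, 158 ± 14.0 CPM in HF and 187 ± 15.5 CPM in IFE.

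Of 5 growth factors that bind neuropilins or their partner receptors, 4 were tested, and 2 were higher in Touchdome than in HF and lower in HF than in IFE, beside 11.8% and 16.0% of all tested genes in those directions. Vegfd had 24.3, 29.7 and 22.4 CPM in Touchdome, against 9.64, 15.2 and 11.1 CPM in HF and 30.5, 49.3 and 39.3 CPM in IFE. HF was lowest and IFE highest, with no overlap. Vegfd had a log2 fold change of 1.11 ± 0.21 for Touchdome against HF (edgeR adjusted p = 0.00208) and -1.75 ± 0.21 for HF against IFE (edgeR adjusted p = 4.38e-05). Vegfa, the main angiogenic factor of the family, had 116, 88.6 and 103 CPM in Touchdome, against 59.9, 53.6 and 61.7 CPM in HF and 81.0, 68.4 and 79.8 CPM in IFE. Touchdome was highest and HF lowest, with log2 fold changes of 0.81 ± 0.13 for Touchdome against HF (edgeR adjusted p = 0.000467) and -0.39 ± 0.13 for HF against IFE (edgeR adjusted p = 0.0315, lost in 8 of 18 alternatives). None of the 4 was called between Touchdome and IFE by edgeR or DESeq2. By edgeR, 1 on each side had an unadjusted p under 0.05, beside 1605 of all 15046 tested genes, both sides together. With the replicate block Vegfd was lower in Touchdome, with a log2 fold change of -0.62 (edgeR adjusted p = 0.0437).

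Of 36 genes that carry plexin signals inside the cell, 35 were tested. In Touchdome against HF 3 were higher and 10 lower, beside 11.8% and 12.8% of all tested genes. In HF against IFE 9 were higher and 9 lower, beside 17.1% and 16.0%, and in Touchdome against IFE 1 was higher, beside 1.22%. At an unadjusted edgeR p under 0.05 in Touchdome against IFE, 3 were on the higher side and 4 on the lower. Of all 15046 tested genes, 1605 had such a p, both sides together. The median log2 fold change of the 35 was -0.35, 0.07 and -0.05 in that order of comparisons. Fyn, a Src family kinase that acts downstream of class A plexins, was the gene called in all 3. It had 2.49, 3.13 and 3.65 CPM in Touchdome, against 18.2, 14.0 and 16.4 CPM in HF and 0.789, 0.563 and 0.227 CPM in IFE. The groups did not overlap, and the log2 fold change was -2.40 ± 0.34 for Touchdome against HF (edgeR adjusted p = 0.000238), 4.98 ± 0.40 for HF against IFE (edgeR adjusted p = 1.6e-06) and 2.58 ± 0.40 for Touchdome against IFE (edgeR adjusted p = 0.00604). The third was lost in 4 of 18 alternatives, which were limma on TPM and a fit of those 2 groups alone.

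Farp1, an exchange factor known as a partner of class A plexins, had 12.4, 9.47 and 27.0 CPM in Touchdome, against 69.1, 73.1 and 82.5 CPM in HF and 3.10, 4.50 and 6.89 CPM in IFE. It was lower in Touchdome than in HF by a log2 fold change of -2.20 ± 0.39 (edgeR adjusted p = 0.00311) and higher in HF than in IFE by 3.93 ± 0.42 (edgeR adjusted p = 0.000118). Between Touchdome and IFE, Farp1 was not called, at a log2 fold change of 1.73 (edgeR adjusted p = 0.11), and was called in 4 of 18 alternatives: with the replicate block (1.71, adjusted p = 0.00676), by DESeq2 (6.08e-05), by limma on log2(TPM + 0.1) (0.0444) and without Touchdome replicate 2 (0.035). Dpysl5 and Dpysl3 belong to the collapsin response mediators, which pass semaphorin signals to microtubules. Dpysl5 averaged 8.15 ± 1.47 CPM in Touchdome, 20.5 ± 3.94 CPM in HF and 6.07 ± 1.24 CPM in IFE, and Dpysl3 11.5 ± 2.45, 29.9 ± 6.06 and 10.4 ± 3.50 CPM. Both were lower in Touchdome than in HF and higher in HF than in IFE, with log2 fold changes for Dpysl5 of -1.34 ± 0.23 (edgeR adjusted p = 0.000978) and 1.76 ± 0.23 (edgeR adjusted p = 8.44e-05) and for Dpysl3 of -1.38 ± 0.26 (edgeR adjusted p = 0.00174) and 1.54 ± 0.26 (edgeR adjusted p = 0.000538). Rap1gap, which inactivates Rap GTPases, averaged 7.43 ± 0.803 CPM in Touchdome, 15.9 ± 3.04 CPM in HF and 8.59 ± 0.745 CPM in IFE, a log2 fold change of -1.11 ± 0.21 for Touchdome against HF (edgeR adjusted p = 0.00173). Cfl1, the actin-severing protein cofilin, averaged 430.3 ± 51.6 CPM in Touchdome, 288 ± 9.92 CPM in HF and 522 ± 47.6 CPM in IFE, a log2 fold change of -0.86 ± 0.12 for HF against IFE (edgeR adjusted p = 0.000149).

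Detection at 1 TPM turned on small numbers for the members nearest to that line. The detected members with the lowest highest group mean were Sema6d at 1.12 TPM, Sema7a at 1.41 TPM and Sema3b at 1.43 TPM, and the nearest of those not detected were Plxnc1 at 0.990 TPM and Plxna4 at 0.327 TPM. Sema3b reached the line through HF replicate 3, with 4.03 TPM and 18 counts. Length correction differed between libraries for a few members: the ratio of CPM to TPM varied 10.6-fold over the libraries for Plxnd1, 8.06-fold for Plxnc1, 6.55-fold for Sema3b, 6.08-fold for Sema7a and 3.61-fold for Sema6c. For Plxnd1 the level in HF was 1.47, 17.6 and 2.28 TPM beside 4.66, 8.11 and 3.87 CPM, so that its mean TPM in HF rests on replicate 2.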

How the data were processed

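RNA from 3 libraries each of sorted Touchdome, HF and IFE keratinocytes was measured by poly(A) RNA-seq with 150 nt paired reads from 50 ng of total RNA, per the labels' protocols. The authors deposited expected counts and TPM per gene for each library. STAR 2.7.9a, RSEM 1.3.3, DESeq2 1.38.2 and build mm39 are named in the submitters' processing notes; what each tool did, which annotation was used and how strand was treated is not given in the sources used here.

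Gene symbols, biotypes and transcript lengths were taken from GENCODE vM21 by Ensembl identifier. Expected counts were rounded to whole numbers, filtered with filterByExpr (minimum count 10, minimum total 15) and tested in R 4.3.3 with edgeR 4.0.16 (TMM scaling, robust quasi-likelihood fit of all 9 libraries) for 3 comparisons, adjusted over all 15046 genes. The library totals of expected counts ran from 10735431 to 15477297 for Touchdome, from 9295059 to 21358479 for HF and from 14647371 to 28249763 for IFE. Floors of 3 counts cover counting error only. TPM was used for levels between genes, sums and shares, with no test. The tests were tried on simulated counts with known changes.

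The members and gene lists were chosen with earlier results of these data known. Values per library are given for members called in at least 1 comparison and ranges for the others; of each pathway list, the called genes with the smallest p are named, up to 4 per comparison. For Touchdome and IFE, libraries with the same number deviated together from their group means (correlations over genes of 0.146, 0.173 and 0.203). The labels give only the number, so it is not known if it marks pairs of libraries. The main edgeR fit left the number out, and the fit with the replicate block is given beside it for Touchdome against IFE. For the comparisons with HF, same-number correlations were between -0.026 and 0.070, so the numbers were not taken as pairs. The 18 alternatives were other size factors, DESeq2 1.42.0, limma 3.58.1 on log2(TPM + 1) and log2(TPM + 0.1), other low-count filters, fits of only the 2 groups compared, the replicate block, and leaving out each library. Libraries of 1 group differed by more than sampling noise (chi-square per degree of freedom 15.7 to 69.3).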

Additional observations from a re-analysis of the deposited data

How the results depend on the processing

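Of 18 alternatives, none reversed a called difference of a family member. Between Touchdome and HF, 9 of 14 calls held in every alternative, and between HF and IFE 12 of 15 did. The counts there ran from 5 to 6 higher and 6 to 8 lower in Touchdome against HF, and from 8 to 11 higher and 5 to 6 lower in HF against IFE. Between Touchdome and IFE the counts depended on the fit. The 0 members called higher in Touchdome became 5 with DESeq2, 1 with no low-count filter and 2 with the replicate block. Over all genes the main fit called 184 higher, DESeq2 446 and the fit with no low-count filter 261. When 1 library was left out, 0 to 1 members were called higher. The 1 came without Touchdome replicate 2, where 216 of all genes were called higher. The 1 member called lower, Sema3c, became 0 when only the 2 groups compared were fitted and 0 with limma on log2(TPM + 1), log2(TPM + 0.1) or log2(TPM + 1) with no low-count filter. When 1 library was left out that count was 0 to 1, and it was 1 only without IFE replicate 2. The causes were not tested. The replicate block, which pairs libraries by number, moved the count of all genes called in Touchdome against IFE to 282 higher and 67 lower, against 184 and 12 without it, and left the members' counts in the comparisons with HF as they were, at 6 and 8 and at 10 and 5. The limma fits on log2(TPM + 1) moved the median of all genes to 0.19 for HF against IFE and 0.13 for Touchdome against IFE, so their values are read relative to that shift. Detection gave 24 members at a minimum of 0.5 TPM and 20 at 2 TPM, beside 23 at 1 TPM. The 6 members left out by the main filter had at most 22 counts in any library, and the main fit did not test their differences. The fit with no low-count filter tested 30 of the 31 members.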
